A study of Drosophila melanogaster with 135 samples.

Results

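The genes of photoreceptor opsins and of the phototransduction machinery were followed across heads and muscle of flies with a reduced dose of Polycomb Repressive Complex 2 (PRC2). They are 10 of the 17023 genes in the deposited tables and were taken by symbol, whatever their values: the opsins ninaE, Rh3, Rh4, Rh5 and Rh6, the arrestins Arr1 and Arr2, the channel trp, the phospholipase norpA and the myosin ninaC. Polyadenylated RNA was sequenced from 27 libraries of heads and 33 libraries of muscle, in 20 groups of 3. The mutants were heterozygous for CRISPR deletions and had been backcrossed into the WT line, which is w mutant and which the labels name by its genotype 5905. The labels give the mutant genotypes as esc289, E(z)239, Pcl421, p55192 and, for Su(z)12, allele 253, with Pcl422 and Pcl423 on the other libraries of the single Pcl groups. Heads came from males of 30d: from WT, from 4 single mutants (Su(z)12, Pcl, E(z) and esc) and from 2 double mutants, Pcl Su(z)12 and esc E(z). Muscle was from the same genotypes at 30d, from p55 mutants at 30d, and from WT at 3d. The 4 single mutants shared 1 WT group in heads, and each double mutant had a WT group of its own.

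Vision in the fly starts when light converts a rhodopsin, an opsin with bound retinal, to its active form. Through a Gq protein this form activates phospholipase C, which opens the TRP and TRPL channels, and arrestin binding then ends the signal. Most photoreceptors of the compound eye, the outer ones, use the rhodopsin encoded by ninaE. The inner photoreceptors choose among Rh3 and Rh4, which absorb in the ultraviolet, and Rh5 and Rh6, which absorb blue and green light, in paired subtypes of ommatidia known as pale and yellow. PRC2 places the repressive histone mark H3K27me3, and the study asked how lowering it affects aging and transcription.

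The opsin promoters carry a short palindrome-like element near the start of transcription, known as RCSI or P3, at which homeodomain proteins of the eye act. Its core was searched on both strands as TAAT, any 3 bases and ATT, in the window from 250 bases before to 50 bases after the 5′ end of each protein-coding gene (RefSeq annotation and sequence, Release 6, equal to dm6). Of 13965 windows, 15.65% held it, and among the 10 genes 8 did, with Arr2 and norpA as the exceptions. A match of letters is a description and not a measured site. The letters TATAAA on the gene's strand, at any place in the window, were in 7 of the 10 windows and in 32.18% of all. They began 26 bases before the start in ninaE, 32 in Rh3, 29 in Rh6 and 28 in Arr1. In Rh4 they began 70 bases before it and in ninaC 223, and in Rh5 they lay after it. trp also held a match and is not shown. The sequences below show the matches in the opsins, Arr1 and ninaC. Each runs from 150 bases before the annotated 5′ end through its first 10 bases, and the capitals mark the matches.

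ninaE (chr3R:19888197-19888356, minus strand): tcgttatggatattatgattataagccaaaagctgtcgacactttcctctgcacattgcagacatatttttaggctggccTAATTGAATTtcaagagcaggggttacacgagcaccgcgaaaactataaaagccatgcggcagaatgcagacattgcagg
Rh3 (chr3R:20082441-20082600, minus strand): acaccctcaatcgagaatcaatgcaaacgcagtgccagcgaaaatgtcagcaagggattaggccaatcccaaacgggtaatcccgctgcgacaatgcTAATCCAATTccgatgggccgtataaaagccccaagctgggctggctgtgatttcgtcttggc
Rh4 (chr3L:16862508-16862667, minus strand): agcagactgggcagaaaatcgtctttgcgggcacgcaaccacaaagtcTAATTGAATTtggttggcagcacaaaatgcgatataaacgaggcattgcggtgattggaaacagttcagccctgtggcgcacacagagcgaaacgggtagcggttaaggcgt
Rh5 (chr2L:12008003-12008162, plus strand): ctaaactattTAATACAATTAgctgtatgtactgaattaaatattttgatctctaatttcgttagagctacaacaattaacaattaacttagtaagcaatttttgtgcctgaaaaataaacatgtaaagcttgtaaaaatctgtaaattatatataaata
Rh6 (chr3R:15483008-15483167, plus strand): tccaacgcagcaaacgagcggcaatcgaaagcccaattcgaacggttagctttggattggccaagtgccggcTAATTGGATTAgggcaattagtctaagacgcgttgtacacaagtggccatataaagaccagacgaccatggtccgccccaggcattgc
Arr1 (chr2L:18078119-18078278, plus strand): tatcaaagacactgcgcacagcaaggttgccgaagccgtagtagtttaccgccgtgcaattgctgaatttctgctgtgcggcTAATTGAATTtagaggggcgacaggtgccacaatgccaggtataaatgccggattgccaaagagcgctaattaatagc
ninaC (chr2L:7377552-7377711, plus strand): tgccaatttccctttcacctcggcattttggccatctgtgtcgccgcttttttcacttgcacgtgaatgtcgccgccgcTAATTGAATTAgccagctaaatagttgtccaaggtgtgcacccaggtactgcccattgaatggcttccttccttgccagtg

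The same 10 letters, TAATTGAATT, stood 70 bases before the start in ninaE, 102 before in Rh4, 68 before in Arr1 and 71 before in ninaC. Rh3 had TAATCCAATT at 53 bases before the start, and Rh6 had TAATTGGATT at 78. In Rh5 the match lay 140 bases before the annotated start, and a TATAAA followed that start at its base 3. The window of trp held a match 11 bases before the start, and Rh6 had another 240 bases before it, outside the stretch shown. The shorter homeodomain core TAATCC, on either strand, was found in Rh3 and Rh6 alone among the 10 and in 8.76% of all windows. A copy in each overlaps the longer element, in Rh6 on the opposite strand.

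On dm6 the genes are spread over 3R, 3L, 2L and X. ninaE (FBgn0002940) lies on 3R at 19886255 to 19888206, Rh3 (FBgn0003249) on 3R at 20081060 to 20082450, Rh6 (FBgn0019940) on 3R at 15483158 to 15484699 and trp (FBgn0003861) on 3R at 29914521 to 29920289. Rh4 (FBgn0003250) spans 3L 16852527 to 16862517, and its intron holds sina, sinah and CG13029 on the opposite strand. Arr2 (FBgn0000121) lies on 3L at 8647261 to 8648936. Rh5 (FBgn0014019), Arr1 (FBgn0000120) and ninaC (FBgn0002938) are on 2L, at 12008153 to 12009832, 18078269 to 18081307 and 7377702 to 7384344. norpA (FBgn0262738) is on X at 4322626 to 4365408. In the annotation used here none of the 10 shares an exonic base with another gene, which matters because reads were counted without regard to strand.

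The deposited tables hold the mean normalised read count of each group, a read count divided by the size factor of its library and averaged over 3 libraries. For genes of low and middle level the mean was resolved back into the reads of single libraries, because only 1 set of whole reads gave it at the precision of the file. The 10 genes were too abundant in heads for that, so their values in heads are the authors' means, without replicate error and without a test. In muscle they were low enough to be read library by library. Among genes of heads with a mean from 100 up to the limit of resolution, the median SD between the 3 libraries lay between 0.089 (WT of Pcl Su(z)12) and 0.156 (Su(z)12) on the log2 scale. This is the spread of other genes, and that of the 10 was not measured. The sums of the means were 4842591 to 7683336 in the groups of heads and 4455811 to 11591935 in those of muscle. The labels were checked on the targeted genes: esc fell in esc heads (62.81 in WT, 37.55 in mutants, limma adjusted p = 0.0131), and the other 3 targeted genes did not pass the test in their single mutants, Pcl being at 167.6 in WT and 188.0 in the heads labelled Pcl. In the double mutants none of the targeted genes passed, with esc at 53.25 in WT and 43.4 in esc E(z) (limma adjusted p = 0.74) and log2 ratios of -0.08 for Pcl and -0.01 for Su(z)12 in Pcl Su(z)12. These heterozygous deletions need not lower the count, so the labels of those groups were not checked by it.

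Heads carried the RNA of the eye at very high levels. ninaE was the most abundant of all 17023 genes by mean in each of the 9 groups of heads, with 2.44% to 3.13% of the summed means, and the 10 genes together took 5.61% to 6.62%. The photoreceptor markers chosen for the check (ninaE, chp, trpl, inaD, Pph13 and gl) summed to 157187.9 to 235151.5 in groups of heads and to 65.91 to 239.0 in groups of muscle. The pigment gene w, a transporter of eye pigment precursors and mutated in the background of the WT line, was at 5.219 or less in every group of heads.

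Per kb of exon the order of the genes was almost fixed over the 9 groups of heads. ninaE led with 80254.9 to 118068.1 normalised counts per kb, Arr2 followed at 36214.8 to 60333.6 and Arr1 at 17251.3 to 29229.2. These 3 ranks held in every group, and ninaE exceeded Arr2 by 1.96 to 2.26 times. Rh3 and Rh4 took the next ranks and exchanged them between groups, and trp, the main light-gated calcium channel, came sixth in each. ninaC, the myosin that moves and localises signalling proteins in the light-sensing membrane, and Rh6 exchanged ranks too, and so did norpA and Rh5 at the bottom, where ninaE per kb was 61.9 to 104 times higher. The 3 sets of groups were scaled separately, so the height of a gene is not comparable between sets, while the order within a group is.

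**Figure D1:**
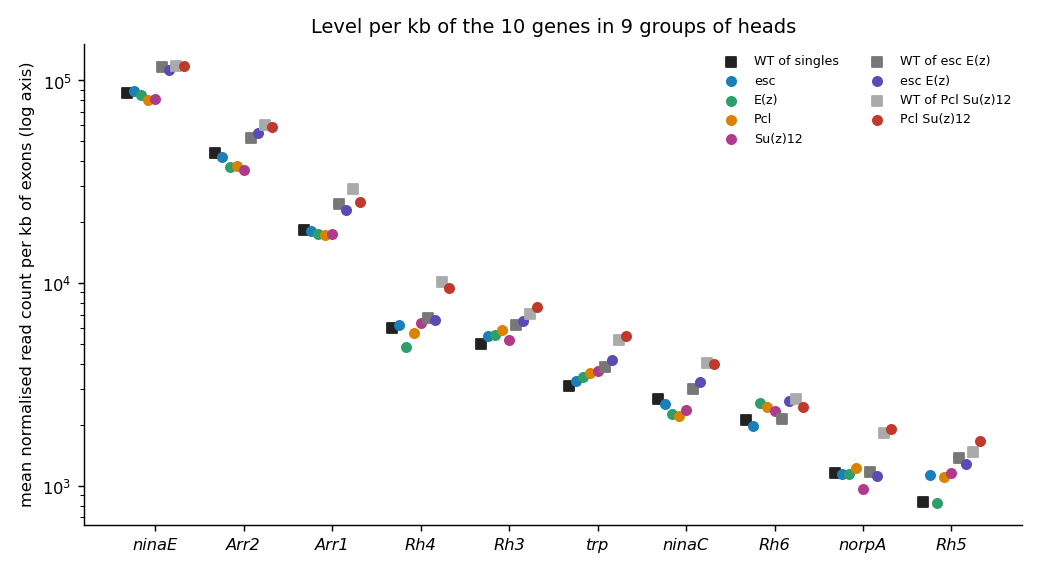
Mean normalised read count per kb of exons (log axis) for each of the 10 genes in the 9 groups of heads, with WT groups as squares and mutants as circles; each point is 1 group mean of the authors, without an error. The order ninaE, Arr2, Arr1 held in all 9 groups, and norpA and Rh5 were lowest.

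Across the 6 comparisons of mutant heads with their WT heads, the differences of the 10 genes were small. The log2 ratio of the means, each plus 1, lay between -0.32 (Rh4 in E(z)) and 0.47 (Rh5 in Su(z)12) over all 60 values, and its median over the 10 genes lay between -0.03 and 0.02 in each comparison. A difference of at least 1.2-fold was reached 5 times upward and 3 times downward. Since means of 3 libraries were compared without their spread, these counts are descriptions. Of the 6 comparisons 4 share their WT group, so the same direction in all 6 is not 6 separate agreements. The share of all genes with the same direction in all 6 was not computed.

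The count of genes past 1.2-fold is read against all genes with a mean of at least 1000. In esc heads 1 of the 10 genes was higher by this margin and none was lower, against 3.56% and 2.43% of 1068 genes. In E(z) it was 1 and 1, against 6.23% and 4.91% of 1060. In Pcl it was 1 and 1, against 6.05% and 7.28% of 1058. In Su(z)12 it was again 1 and 1, where 19.4% and 22.1% of 1036 genes passed. In esc E(z) 1 gene was higher and none lower, against 10.4% and 5.18% of 1273. In Pcl Su(z)12 none passed in either direction, against 5.76% and 2.68% of 1718. With 10 genes, shares of this size are too coarse to set the group apart from the rest.

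ninaE itself differed least. Its authors' mean was 138198.8 in the WT of the single mutants, 141307.5 in esc, 133922.1 in E(z), 127444.8 in Pcl and 128901.2 in Su(z)12. It was 185447.8 in the WT of esc E(z) and 178555.9 in the double mutant, and 187357.4 in the WT of Pcl Su(z)12 against 187492.1 in that double mutant. The mutants thus stood between 7.8% below and 2.2% above their WT. Among the 3 WT groups its share of the summed means ranged more widely, from 2.51% to 3.13%, or 1.24-fold.

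The inner photoreceptor opsins for ultraviolet light went their own ways. Rh3 was above WT in 6 of 6 comparisons, by 5.0% in Su(z)12 and in esc E(z) at the least and by 17.7% in Pcl at the most (6947.2 in WT, 8175.8 in Pcl). Rh4 was 8115.5 in WT and 6498.8 in E(z), 19.9% lower, which was the only one of its 6 differences past 1.2-fold. Its other mutants ranged from 7.0% lower in Pcl Su(z)12 to 5.5% higher in Su(z)12. The ratio of Rh4 to Rh3 per kb was 1.2 in the WT of the single mutants, 1.14 in esc, 0.869 in E(z), 0.966 in Pcl and 1.21 in Su(z)12. It was 1.09 and 1.01 in WT and mutant heads of esc E(z), and 1.43 and 1.24 in those of Pcl Su(z)12. Per kb, Rh3 was thus the higher of the pair in E(z) and Pcl alone among the 9 groups. By the means themselves it was also the higher in esc E(z), at 9057.0 against 8886.3 for Rh4.

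The blue-sensitive opsin Rh5 showed the largest differences of the 10. Its mean was 1311.7 in the WT of the single mutants and 1788.6 in esc, 1293.3 in E(z), 1748.6 in Pcl and 1813.0 in Su(z)12. Against this shared WT it was 36.4% higher in esc, 33.3% higher in Pcl and 38.2% higher in Su(z)12, and 1.4% lower in E(z). In the double mutants it was 2146.9 against 2006.8 (esc E(z), WT first) and 2306.0 against 2603.8 (Pcl Su(z)12). The 3 high values share their control, and that control stood low among WT groups: Rh5 took 0.0268%, 0.0362% and 0.0309% of the summed means in the WT of the singles, of esc E(z) and of Pcl Su(z)12. The WT groups therefore spanned 1.35-fold by themselves, against at most 1.38-fold between a mutant and its WT.

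Rh6, the green-sensitive opsin of the yellow subtype, was past 1.2-fold in the mutants with E(z) in their name. It was 2975.5 in WT and 3627.0 in E(z), 21.9% higher, and 3022.3 in WT and 3690.9 in esc E(z), 22.1% higher. The 3 WT groups by themselves spanned 1.2-fold for Rh6, from 0.0505% to 0.0607% of the summed means. In esc and in Pcl Su(z)12 it was 6.2% and 8.7% lower, and in Pcl and Su(z)12 16.0% and 10.8% higher. The ratio of Rh6 to Rh5 per kb was 2.53 in the WT of the singles and 1.74 in esc, 3.13 in E(z), 2.2 in Pcl and 2.03 in Su(z)12. In the WT of esc E(z) it was 1.57, and 2.05 in that double mutant, and in the WT of Pcl Su(z)12 it was 1.82, and 1.48 in that double mutant. The 3 WT groups thus covered 1.57 to 2.53, which takes in all mutants except E(z) and Pcl Su(z)12. The 4 opsins of inner photoreceptors together, per kb, amounted to 0.141 to 0.188 of ninaE.

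**Figure D2:**
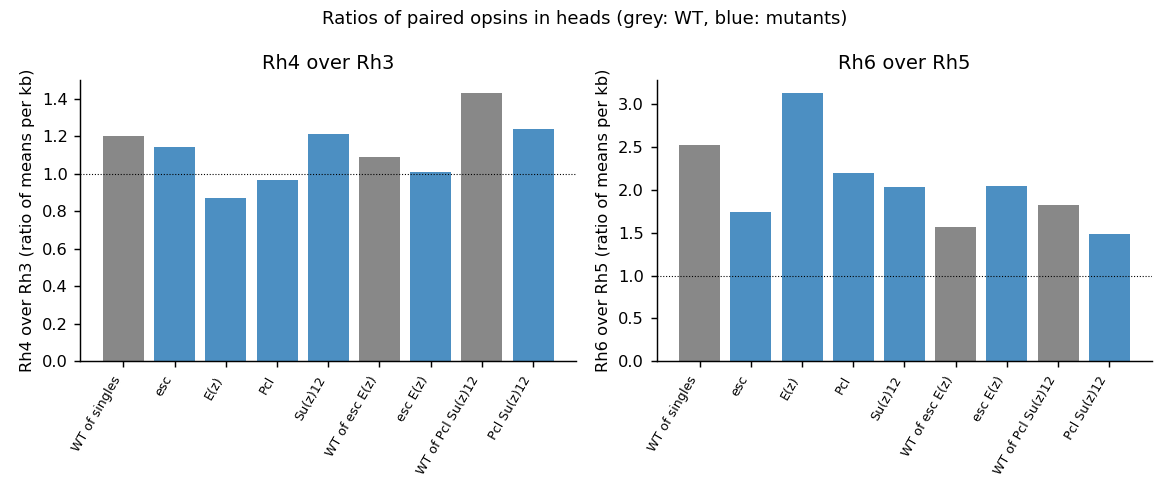
Ratio of Rh4 to Rh3 and of Rh6 to Rh5, from group means per kb of exons, in the 9 groups of heads (grey WT, blue mutants; no replicate error). The WT bars range from 1.57 to 2.53 for Rh6 to Rh5, and E(z) stands highest at 3.13.

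The arrestins, which bind active rhodopsin and stop its signal, were on the low side. Arr1 was below WT in 6 of 6 comparisons, by 1.9% in esc at the least and by 13.8% in Pcl Su(z)12 at the most (72371.6 in WT, 62384.7 in mutants). Arr2 was 68079.6 in the WT of the singles, 65160.1 in esc, 57654.6 in E(z), 58547.5 in Pcl and 56024.3 in Su(z)12, so that 3 of the 4 single mutants stood 14.0% to 17.7% below it. In the doubles it was 80831.8 against 84759.8 in esc E(z) and 93336.1 against 91306.2 in Pcl Su(z)12 (WT first), 4.9% higher and 2.2% lower. The ratio of Arr2 to Arr1 per kb lay between 2.06 and 2.39 in all 9 groups.

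trp was above WT in 6 of 6 comparisons, 4 of them against the same WT group. It was 12946.7 in the WT of the singles, 13613.3 in esc, 14325.1 in E(z), 14943.2 in Pcl and 15220.1 in Su(z)12, and the double mutants had 17381.0 (esc E(z), WT 16026.7) and 22796.1 (Pcl Su(z)12, WT 21688.3). The differences were 5.1% to 17.6%, all under 1.2-fold. norpA, the phospholipase C of the cascade, was 9581.4 in WT and 8001.1 in Su(z)12, 16.5% lower, and between 4.4% lower and 6.1% higher than WT in the other 5 comparisons. ninaC resembled Arr2: it was 14486.8 in WT, 12323.3 in E(z), 11977.2 in Pcl and 12875.0 in Su(z)12, or 11.1% to 17.3% lower, 13729.1 in esc, and 7.8% higher and 1.2% lower in the double mutants. Among the WT groups the share of ninaC was steady, at 0.276% to 0.296% of the summed means. For 8 of the 10 genes the largest log2 difference of a mutant from its WT exceeded the log2 range of these shares. It did so clearly for ninaC (0.274 against 0.098) and narrowly for Rh5 (0.467 against 0.437), and not for ninaE and norpA. For each gene the largest of 6 differences was set against a range of 3 WT groups, which favours exceeding it, and no test was made. The differences are of normalised means and the ranges are of shares of the summed means. The share of all genes that exceed their range was not computed, so the count is a description.

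**Figure D3:**
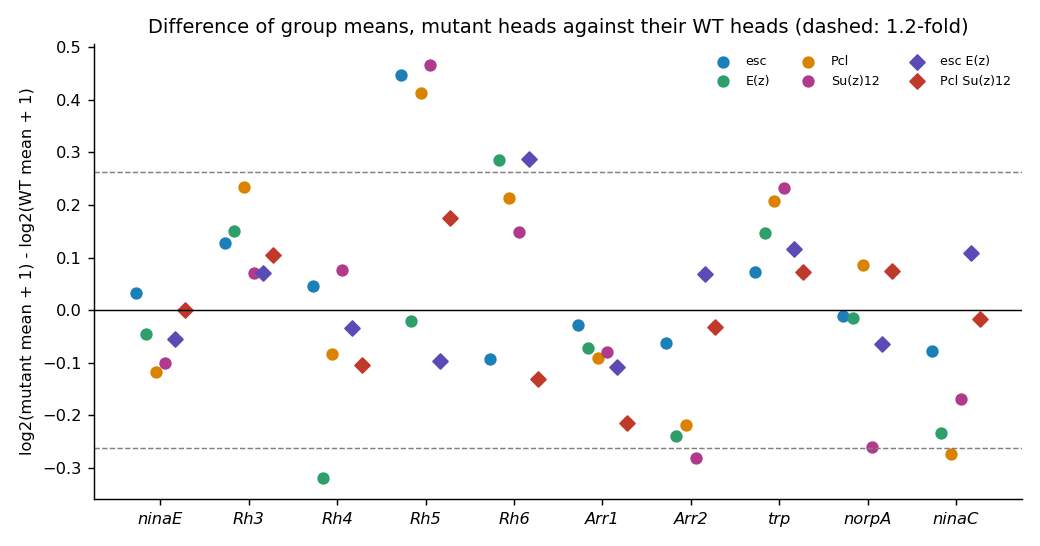
Log2 of mutant mean plus 1 minus log2 of WT mean plus 1 for the 10 genes in the 6 comparisons of heads (circles single mutants, diamonds double mutants, dashed lines 1.2-fold); no error is known. Rh5 reaches 0.41 to 0.47 in esc, Pcl and Su(z)12. Rh3 and trp lie above 0 and Arr1 below 0 in all 6, of which the single mutants share their WT group.

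Other genes of the eye gave the setting of these differences. Of a list of 50 genes of phototransduction, retinal supply and photoreceptor fate, 49 were in the tables, and 20 to 26 of them had a mean of at least 1000 in a comparison. In E(z), 1 of 20 was at least 1.2-fold higher and 6 were lower, where 6.23% and 4.91% of all genes of that level were. In Pcl none of 20 was higher and 5 were lower, against 6.05% and 7.28%. In Su(z)12 none of 20 was higher and 7 were lower, against 19.4% and 22.1%. In esc 0 of 20 passed in either direction (3.56% and 2.43% of all), 1 of 22 was higher and none lower for esc E(z) (10.4% and 5.18%), and 1 of 26 was higher and 1 lower for Pcl Su(z)12 (5.76% and 2.68%). The median log2 ratio of these listed genes was -0.20 in Su(z)12, -0.14 in E(z), -0.11 in Pcl and -0.07 in esc, and among the double mutants -0.02 for Pcl Su(z)12 and -0.05 for esc E(z). Over all genes of that level it was -0.071, -0.003, -0.014, 0.021, 0.027 and 0.004 in the same order. The 4 single mutants are set against 1 WT group, so a departure of that group and an effect shared by these mutants cannot be told apart here.

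Of the other genes of the light-sensing membrane, 3 that were among the low ones are given here, chosen after their values were seen. The channel trp and the phospholipase norpA did not follow them throughout. In E(z), Pcl and Su(z)12 the log2 ratio was 0.146, 0.207 and 0.233 for trp and -0.015, 0.086 and -0.26 for norpA. That of Galphaq was -0.086, -0.044 and -0.127. inaD, the scaffold that holds the TRP channel, phospholipase and kinase together, had a mean of 3853.0 in WT, 3111.5 in E(z), 3076.3 in Pcl and 3293.9 in Su(z)12. inaC, the eye protein kinase C in that complex, was 4493.7 in WT, 3577.2 in E(z), 3170.4 in Pcl and 3711.0 in Su(z)12. Gbeta76C, the beta subunit of the eye Gq protein, was 3750.4 in WT, 2916.1 in E(z), 2816.2 in Pcl and 3316.8 in Su(z)12. In esc these 3 were at 3830.1, 4249.9 and 3389.5, and in esc E(z) they were above their WT (inaD at 4475.5 and 4939.8, WT first). Pdh, a retinol dehydrogenase of pigment cells that recycles the chromophore, had the largest difference of the abundant listed genes, at 9941.5 in WT, 5930.3 in E(z), 6465.5 in Pcl and 7735.7 in Su(z)12. trpl, the second light-gated channel, was at 17076.6 in WT, 20539.3 in E(z), 20057.6 in Pcl and 16824.5 in Su(z)12, and its log2 ratio was -0.22 in Pcl Su(z)12 and -0.11 in esc E(z).

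**Figure D4:**
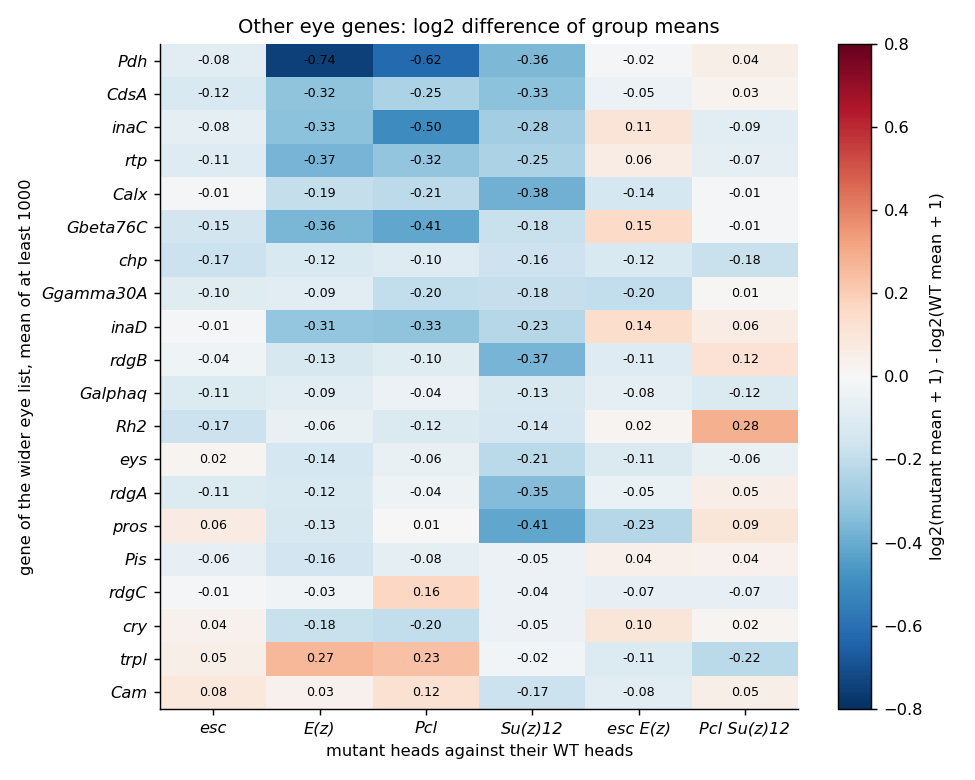
Log2 difference of group means for the 20 other eye genes with a mean of at least 1000 in all 6 comparisons of heads (rows genes, columns mutants, colour and printed value the log2 ratio; no replicate error). The columns E(z), Pcl and Su(z)12 are mostly below 0, with Pdh lowest in E(z), at a mean of 5930.3 against 9941.5 in WT, while esc and the double mutants lie nearer to 0.

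Markers of other cell types were counted beside these values. In Su(z)12 heads all 6 neuron markers (elav, nSyb, Syt1, brp, cac and para) were below WT, with a summed level of 17939.4 in WT and 14068.3 in mutants, and the 4 fat body markers summed to 1387.5 and 2107.0. In esc E(z) all 6 neuron markers were below WT too (sums of 17998.6 in WT and 16410.5 in mutants). In Pcl Su(z)12 all 6 were above WT (24133.3 and 25007.7). In E(z) the neuron markers summed to 17539.9, in Pcl to 17657.5 and in esc to 17832.6, close to WT. The 6 muscle markers were all higher in 5 of the 6 comparisons, with 6519.8 in WT and 7234.4 in esc as an example. The 4 antenna markers were all lower in Pcl (2061.5 in WT, 1673.9 in mutants) and in Pcl Su(z)12. Fewer cells of a type and less RNA per cell cannot be told apart in such bulk samples, and the part of these shifts in the values of the eye genes was not tested.

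Listed genes of lower level could be tested, because their means resolve into libraries. limma on log2 of the normalised count plus 1 tested 10 to 21 of the 49 per comparison. It called 1 in esc, where 2.65% of 7987 tested genes were called, 1 in E(z) (2.46% of 8000) and 1 in Pcl (3.11% of 6743). It called 0 in Su(z)12 (2.81% of 8076), 0 in esc E(z) (3.97% of 8008) and 0 in Pcl Su(z)12 (2.92% of 9213), with 4, 3 and 4 at an unadjusted p under 0.05, which 15.4%, 15.0% and 13.0% of all tested genes reached. In E(z), esc and Pcl 7 of 17, 3 of 17 and 2 of 10 reached it, against 12.5%, 12.1% and 12.1% of all. The called gene differed each time, and none was called in more than 1 comparison.

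ninaD, the scavenger receptor through which flies take up the carotenoids from which retinal is made, fell in esc heads. Its 3 WT libraries had normalised counts of 106.5, 75.5 and 102.3, and its 3 esc libraries 51.7, 35.7 and 46.9. The groups did not overlap, and the change was -1.07 ± 0.17 on the log2 scale (SE, limma adjusted p = 6.89e-05). In Su(z)12, esc E(z) and Pcl Su(z)12 its log2 changes of -0.39, -0.46 and -0.21 did not pass (adjusted p = 0.261, 0.165 and 0.669 by limma). In E(z) and Pcl it went the other way, at 0.165 and 0.26, and did not pass either (limma adjusted p = 0.737 and 0.457). salr, a transcription factor of inner photoreceptors, fell in E(z) heads. Its WT libraries had 212.1, 194.2 and 207.7 and its E(z) libraries 154.8, 151.9 and 157.7, a log2 change of -0.40 ± 0.10 (SE, limma adjusted p = 0.0235). dve, which represses opsins in outer photoreceptors and separates the inner ones, rose in Pcl heads. Its WT libraries had 110.1, 97.1 and 122.1 and its Pcl libraries 158.8, 155.6 and 139.5, a log2 change of 0.46 ± 0.12 (SE, limma adjusted p = 0.0147). The call of ninaD held in each alternative run. That of salr was lost without WT library 1 or 3 (limma adjusted p = 0.168 and 0.106), without E(z) library 1 or 2 (0.0955 and 0.0847) and with all single mutants in 1 fit (0.0567). That of dve was lost without WT library 2 (limma adjusted p = 0.13), without Pcl library 1 or 2 (0.107 and 0.0998) and in the shared fit (0.137).

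By their median over the 6 comparisons the genes lowest against WT were sens, ninaD and laza. sens, a transcription factor of inner photoreceptors, had means of 1.689 to 10.16 and a median log2 ratio of -0.56, and laza, a phosphatidic acid phosphatase of photoreceptors, had -0.25. The highest were Pph13 (0.12), a homeodomain protein of photoreceptors, dve (0.09) and prom (0.07). ninaA, a chaperone needed for rhodopsin export, was listed at 0 in all 20 groups. Such an exact 0 is not read here as a lack of expression in heads, and how its reads were counted was not tested.

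In muscle 9 of the 10 genes were at trace level. The median of the 11 group means was under 0.1% of the median in heads for 8 of the 10, such as 0.064% for ninaE, 0.0712% for Arr2 and 0.0404% for Rh6. Rh5 stood at 0.31% and norpA at 3.46%, with group means of norpA from 296.8 to 876.7. The high means of norpA were those of WT at 3d (876.7) and at 30d (587.2) and of Pcl Su(z)12 (640.3), all too high to be resolved. The esc group (323.7) could not be resolved either. The groups with high norpA also had the largest sums of means in muscle, 11591935, 7305280 and 7325067, against 4455811 to 5085069 in the others. The height of norpA is therefore not compared between groups that were scaled separately. The log2 ratio of 30d to 3d was -0.58, without a test, and the sum of means was also lower at 30d. The 21 resolved libraries of norpA, none from the 4 unresolved groups, had 270.7 to 379.0. ninaE ranged from 2.4 to 569.5 over 33 libraries and Arr2 from 1.2 to 325.1.

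Most groups of muscle carried ninaE in all 3 libraries, such as 91.6, 71.1 and 93.4 in Pcl, but in some a single library held most of it. Libraries are numbered here by falling size factor within a group, since the means do not name them. In the WT of esc E(z), ninaE had normalised counts of 7.1, 569.5 and 2.4, from 10, 720 and 2 reads. Arr2 had 3.6, 325.1 and 1.2 in the same 3 libraries, Arr1 2.1, 169.3 and 0.0, ninaC 0.0, 57.7 and 0.0, and trp 3.6, 43.5 and 6.1. Thus 1 library of the 3 carried nearly all of the signal of these genes. Rh5 had 5.0, 7.9 and 4.9 and norpA 332.7, 325.1 and 347.8 there, so neither stood out in it. In WT muscle at 3d 1 library stood out too, with ninaE at 101.9, 4.7 and 4.1 and Arr1 at 60.1, 1.2 and 4.1.

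**Figure D5:**
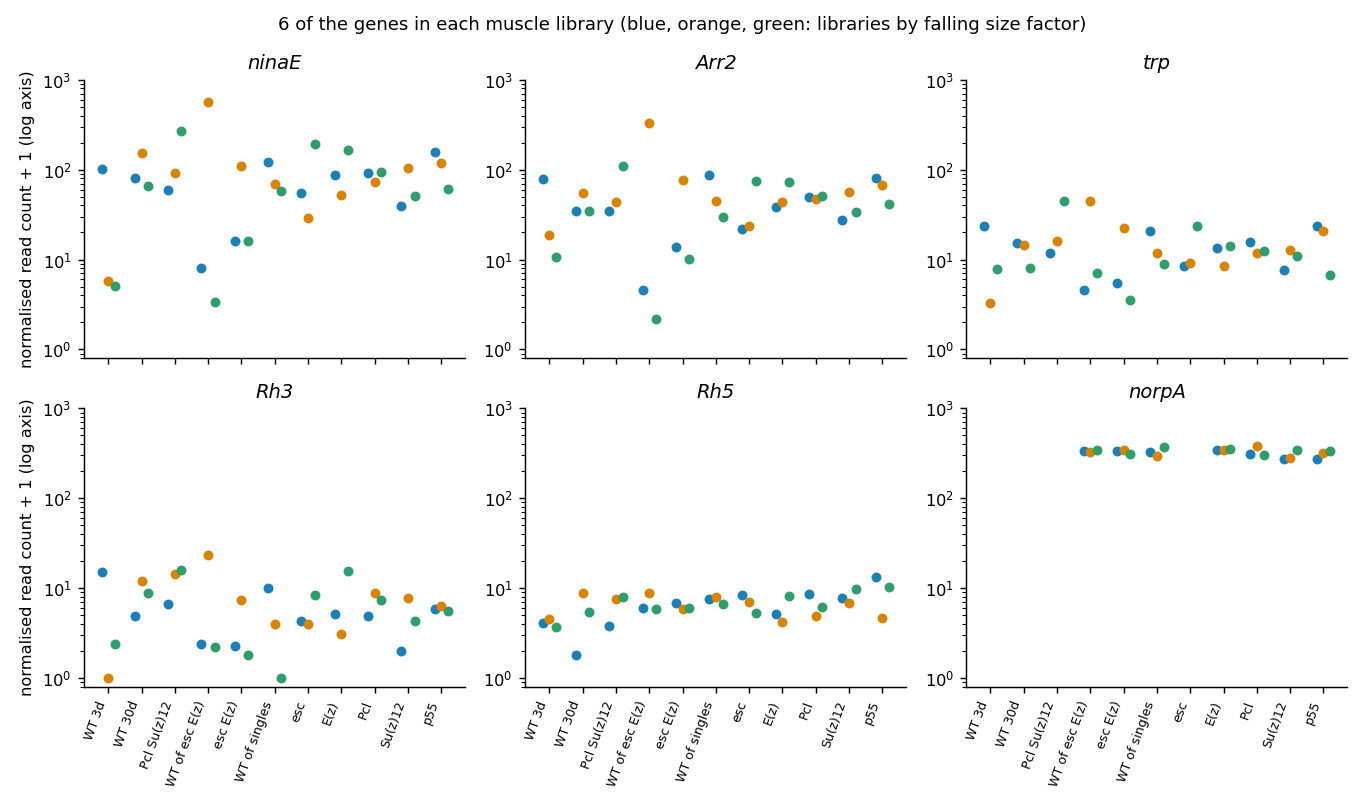
Normalised read count plus 1 (log axis) of ninaE, Arr2, trp, Rh3, Rh5 and norpA in the libraries of the 11 groups of muscle, each point 1 library, coloured by the order of size factors within its group; norpA is missing where its mean could not be resolved. ninaE reaches 569.5 in 1 library of the WT of esc E(z) and 2.4 in another, while the norpA libraries shown lie between 270.7 and 379.0.

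In that high library, relative to ninaE, ninaC was at 10.1% (8.83% to 11.7% over the groups of heads) and Rh6 at 2.5% (1.63% to 2.71%), within their ranges in heads. Arr1 at 29.7% was below its range of 31.6% to 38.6%, and Arr2 at 57.1% was above its range of 43.1% to 49.8%. trp at 7.64%, Rh3 at 3.89% and Rh4 at 2.36% were below theirs, which begin at 8.64%, 4.65% and 4.85%. norpA was at 57.1%, against 5.18% to 8.44% in heads. Rh5 at 1.39% was inside its range of 0.949% to 1.41%, but its level was close to that of the other libraries. These percentages rest on few reads for the rarer opsins.

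Markers were compared over the same 3 libraries. The photoreceptor markers summed to 17.8, 688.1 and 10.9. The neuron markers that could be resolved, 4 of 6, summed to 1181.8, 1158.0 and 1130.9. The 5 pigment and cone cell markers summed to 51.3, 118.6 and 77.8: Pdh was highest in the high library at 56.2, st (13.5, 19.8 and 23.1) and sv (27.8, 42.7 and 48.6) were highest in the third, and w and Crys were at 0.0. ort, a histamine receptor of the cells that receive photoreceptor input, was at 0.0 in each, and HisCl1, another, at 20.7, 21.4 and 18.2. Whether eye tissue entered the dissected muscle was not tested.

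Over all muscle libraries the genes most like ninaE were other eye genes. Likeness was the Pearson correlation of log2 normalised counts plus 1, after removal of each group's mean, over 33 libraries in 11 groups of 3, and 7071 other genes were compared. This search was chosen after the values were seen and carries no p. Arr1 and Arr2 led with r of 0.97 each, then ninaC (0.94), inaC (0.90), trp (0.88), trpl (0.87), chp (0.85), Rh3 (0.84), Pdh (0.83), inaD (0.82), Gbeta76C (0.80) and Rh4 (0.74). Over all 33 libraries these first 12 were members of the 10 or of the wider list, followed by CG1561 (0.74), CG14664 (0.71) and retinin (0.71). Rh5 had r of 0.22 and came in place 1011. Without the 3 libraries of the WT of esc E(z), r was 0.94 for both arrestins, 0.89 for ninaC, inaC and trp, and 0.12 for Rh5. It was lower for chp (0.70), Pdh (0.69), Rh4 (0.65, place 15) and retinin (0.52, place 54), and CG1561 came in place 11.

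Tests between groups of muscle were made per library by limma. Of 76 tests of the 10 genes over 8 comparisons, 2 were called. None was called in esc (2.68% of 6481 tested genes were called), E(z) (1.91% of 9352), Pcl (2.17% of 9288), Su(z)12 (4.46% of 9386), esc E(z) (3.37% of 8462), Pcl Su(z)12 (3.17% of 8459) or p55 (1.4% of 9199). At an unadjusted p under 0.05, 1 was found in each of E(z), Pcl and p55, each time Rh4 against the same WT libraries at 1.6, 4.0 and 0.0, while 13.4%, 13.0% and 11.8% of all tested genes reached it there. In the other 4 none of the 10 did, against 16.4% of all in Su(z)12, 13.0% in esc and 14.8% in each of the double mutants. Both calls were in WT muscle at 30d against 3d, where 30.3% of 8299 genes were called and 39.8% reached an unadjusted p under 0.05, as did 2 of the 8 genes of the group tested. ninaE had 101.9, 4.7 and 4.1 at 3d and 79.1, 150.6 and 64.3 at 30d, a log2 change of 2.68 ± 0.71 (SE, limma adjusted p = 0.00659), and Arr1 had 33.7, 41.2 and 38.8 at 30d, a change of 2.14 ± 0.72 (SE, limma adjusted p = 0.0302). The ages overlapped in both genes through the first library of 3d. Without that library 5 of the 8 tested genes were called, with ninaE at 4.10 (limma adjusted p = 2.34e-07). Without the third library of 3d none was (ninaE 1.94, limma adjusted p = 0.0567). The share of all genes called in these runs is not given here. The call of Arr1 was lost without any one of the 5 libraries other than the first of 3d, at log2 changes of 1.13 to 2.22.

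The high library also set the apparent difference of the esc E(z) double mutant. By group means ninaE was 193.0 in WT muscle and 46.1 in the mutant, a log2 ratio of -2.04. Its mutant libraries had 14.9, 108.6 and 14.9. With all libraries limma gave 0.27 ± 1.29 (SE, limma adjusted p = 0.953), which sets no direction. Without the high WT library it gave 2.52 ± 0.69 (SE, limma adjusted p = 0.0905), which did not pass. That run left out the high library of WT only and kept the mutant library at 108.6, so no direction is read from it. Arr2 moved from 0.57 to 2.79 (limma adjusted p = 0.899 and 0.0541) and Arr1 from 0.56 to 2.76 in the same way, while norpA stayed at -0.02 and -0.04. In esc muscle the third library had ninaE at 189.5 against 53.6 and 28.3 in the others. Without it ninaE and Arr2 were called lower (limma adjusted p = 0.0357 and 0.0491), with log2 changes of -0.98 and -1.11. The share of all genes called in that run is not given here.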

How the data were processed

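Polyadenylated RNA of heads and muscle was sequenced as single-end reads. Per the paper's methods, alignment to dm6 was with STAR and counting per gene with HTSeq, without strand, and DESeq was used by the authors for scaling and group means. The deposited signal is the mean normalised read count of a group of 3 libraries, by the authors. The tables also hold the authors' overall means, fold changes, log2 fold changes, p-values and adjusted p-values, which were not used.

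Each mean was resolved into whole reads of its libraries where 1 solution fitted 10 significant digits, up to the level at which 99% of genes in bins of 50 resolved (150 to 800 by group, with means tried up to 1000). Libraries are numbered by falling size factor (0.7274 to 1.5453). Resolved genes with a mean of at least 1 were tested with limma 3.58.1 in R 4.3.3 (trend, Benjamini-Hochberg adjustment, called at adjusted p under 0.05) on log2 of the value plus 1, which understates changes of low genes. In simulated heads of esc (7872 genes), 81.0% of 2-fold and 15.0% of 1.5-fold changes were recovered. The simulated spread was fixed for all genes and wider than in the data, where the median SD in esc heads was 0.093 on the log2 scale. Only genes of low and middle mean were changed. These shares are therefore not the power of the real tests. The 10 genes exceeded the level in heads, so the planned tests of them, of the opsin ratios and of likeness over head libraries could not be made, and ratios of means (pseudocount 1) were used instead. Python 3.11.15, numpy 2.4.6, pandas 2.3.3, numba 0.67.0 and matplotlib 3.10.9 were used.

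Named were the 10 genes and, of the wider list, the called genes and the 3 with the highest and the 3 with the lowest median log2 ratio. Genes described beside Arr2 and ninaC, and the likeness to ninaE (genes with a mean of at least 2, 15 named), were chosen after their values were seen. The members and lists were chosen with earlier results of these data known. Controls were assigned by sample titles, with which some descriptions in the labels disagree. Alternatives were pseudocounts of 10 and 0.1, no filter or a mean of at least 10, centring on the median, a 1.5-fold margin, a shared fit and leaving out each library. The replicates are separate samples, and p-values measure the spread between them.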

Additional observations from a re-analysis of the deposited data

How the results depend on the processing

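The 60 differences of the 10 genes in heads were recomputed with pseudocounts of 10 and 0.1 and with centring on the median, and 179 of 180 values kept their direction. The exception was ninaE in Pcl Su(z)12, at 0.001 and, centred, -0.004 on the log2 scale. At 1.5-fold, 0 of the 10 genes passed in each of the 4 single mutants and in esc E(z). The filters on low values left every count of these genes as it was, since all 10 lie far above them. Their unadjusted p, the fit of all groups and leaving out libraries were not run, because their means in heads could not be resolved. No paired analysis was possible because the deposited means carry no replicate numbers. Among the wider list, an unadjusted p under 0.05 was reached by 3 genes in esc, 4 in Su(z)12, 7 in E(z) and 2 in Pcl, and by 4 in Pcl Su(z)12 and 3 in esc E(z), where 10 to 21 listed genes were tested and 12.1% to 15.4% of all tested genes reached it. With all groups of a scaling in 1 fit, 0 were called in E(z), 0 in Pcl and 1 in Su(z)12. Leaving out each library gave 0 to 3 calls in E(z), 0 to 1 in Pcl and 0 to 1 in Pcl Su(z)12. In muscle an unadjusted p under 0.05 was reached by 1 of the 10 genes in each of E(z), Pcl and p55. Leaving out each library, for which no share of all genes is given, led to 0 to 2 calls in esc and 0 to 5 in WT at 30d against 3d. In the latter a pseudocount of 10 or of 0.1 gave 1. The cause of these shifts was not tested. A group of 3 libraries, and means without libraries in heads, limit what can be called.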
